A study of Mus musculus with 54 samples.

Results

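The RNAs of the liver X receptors (LXRs) and of 7 classical LXR target genes were followed in primary mouse microglia that had or had not been given alpha-synuclein (aSyn). The 9 genes were taken by symbol from a table of 16632 genes: the receptors Nr1h3 (LXR alpha) and Nr1h2 (LXR beta), and the targets Abca1, Abcg1, Mylip, Srebf1, Lpcat3, Scd2 and Pltp. Nr1h3 was chosen by its measured gap in read counts at 300 min of co-culture, so every contrast at 300 min is given as a description with no test. Which contrast at 300 min showed the gap is not stated, and if it used untreated or aSyn-treated cells, those units also enter tested comparisons. The other 8 genes were chosen as the second receptor and known targets in lipid efflux, phospholipid remodelling and desaturation. All 9 genes passed the filter on low counts, which left 13169 genes.

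Microglia of neonatal C57BL/6 mice were shaken off an astrocyte layer. Donor cultures in petri dishes received 1 µM Atto-488-labelled aSyn for 14 h, and acceptor cultures in T25 flasks were stained with a violet cell dye for 15 min. Both populations were then mixed, and flow cytometry sorted donors and acceptors apart again. RNA was counted by 3′ tag sequencing, which gives about 1 read per transcript molecule near its poly(A) tail and so cannot tell transcripts that share a 3′ end apart.

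The 54 libraries fell into 14 groups. Untreated cells gave 6 libraries, and cells given aSyn but not co-cultured, called aSyn-treated here, gave 4. Donors, which all carried aSyn, and acceptors, which were given the dye and no aSyn, were sampled at 0, 15, 30, 60, 150 and 300 min. Each of these 12 groups had 4 libraries, except donors at 0 and 60 min and acceptors at 0 and 300 min, which had 3. The labels do not say what a 0 min co-culture was, nor whether the untreated and aSyn-treated cells passed through the sorter. Donors and acceptors differed in aSyn, in dye and in culture vessel together, so these cannot be told apart in that comparison. With and without aSyn refers below to what the cells were given. Whether aSyn passed to acceptors during co-culture was not tested. The label of each library carries a replicate number from 1 to 4. Untreated libraries that share a number were summed, which leaves 52 units, each a group and a number. Nothing in the labels says that the numbers stand for separate cultures, so p-values measure only the spread between these samples.

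LXRs are nuclear receptors that bind DNA as partners of the retinoid X receptors and are switched on by oxysterols, the oxidised derivatives of cholesterol. In macrophages and microglia they raise genes that carry cholesterol out of the cell and remodel its lipids, as after the uptake of myelin or dying cells. Nr1h2 is expressed in most tissues, while Nr1h3 is more restricted and is itself an LXR target in some macrophages. At a known LXR element the receptor pair contacts a direct repeat whose letters depart from the consensus, and the Abca1 and Srebf1 promoters are textbook cases.

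The windows that carry such an element are shown because they are the sites through which a change in LXR activity would be read out in these 2 targets. The promoter table from RefSeq (GRCm38.p6), which gives 250 bases before to 50 after each start site, held 7 of the 9 members, and Abcg1 and Scd2 are named only. The core of the known element, GGTTACT and CGG with any 2 bases between them, was searched on both strands and occurred in 9 of 32851 windows, or 0.0274%. It occurred once for Abca1, 64 bases before the start, and in the window of the third Srebf1 start 179 and 128 bases before it. The letters were written from known elements of these genes, so the matches are a description. The 250 bases before the start, with the core in capitals, read 5′ to 3′ on the minus strand at chr4:53159896-53160145 for Abca1 and at chr11:60210472-60210721 for Srebf1.
Abca1: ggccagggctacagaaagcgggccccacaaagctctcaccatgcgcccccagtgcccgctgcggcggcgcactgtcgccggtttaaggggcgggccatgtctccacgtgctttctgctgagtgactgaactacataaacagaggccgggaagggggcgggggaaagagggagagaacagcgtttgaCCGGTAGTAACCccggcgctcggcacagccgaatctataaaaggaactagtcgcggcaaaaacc
Srebf1: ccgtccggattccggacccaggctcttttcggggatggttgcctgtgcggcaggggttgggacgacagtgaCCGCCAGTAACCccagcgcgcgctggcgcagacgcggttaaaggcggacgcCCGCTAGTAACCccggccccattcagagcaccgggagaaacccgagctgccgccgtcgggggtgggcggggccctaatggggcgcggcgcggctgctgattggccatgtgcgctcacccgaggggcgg
The consensus repeat, the hexamer AGGTCA written 2 times with any 4 bases between, was found on either strand in 5 windows (0.0152%), none of them a member's. The hexamer alone, which that repeat contains and the core does not, was in 16.3% of all windows and in no window of the 7 members. These are statements about letters in short windows only.

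The libraries held between 7807389 and 15537493 counts each. Units with number 4 carried a separate run of facility numbers and more Rn45s, the ribosomal RNA precursor, which took 13.39 to 22.09% of their counts and 1.42 to 13.47% in the others. The 10 microglia markers were all found in every unit, with a summed level of 2489 to 8896 CPM (counts scaled to a common library size). Tmem119 and P2ry12 were low, at medians of 4.71 and 5.65 CPM, and Cd163 and Lyve1 of border macrophages were at 0 in 42 and 29 of the 52 units. Mrc1 and Pf4, from the same border macrophage list, were found in every unit, at medians of 126.8 and 76.1 CPM. The summed level of 7 astrocyte markers was 10.39 to 135 CPM in untreated and 11.16 to 28.9 CPM in aSyn-treated cells, and that of 6 oligodendrocyte-lineage markers was 115.5 to 574.5 and 79.5 to 239.1 CPM. With the replicate number as a block, 5 of the 7 and 4 of the 6 fell in that comparison, where 19.2% of all tested genes were called. Without the block 0 of either list were called. Of 10 microglia markers 2 rose and 2 fell with the block, and 1 of 3 tested neuron markers fell. With the block 1 of 2 tested border macrophage markers rose, and 1 of 4 fibroblast and vessel markers rose with and without it. In donors against acceptors from 0 to 150 min no astrocyte or oligodendrocyte-lineage marker was called with or without the block, though the medians of both lists were below 0 at each time, at -1.34 to -0.27 and -2.46 to -0.26 on the log2 scale. With the block 1 of 2 border macrophage markers was called higher at 15, 30, 60 and 150 min. Of 10 microglia markers 2, 1, 2, 1 and 1 were called higher with it from 0 to 150 min, and 1 lower at 15 min. At 15 and 30 min 1 of 4 fibroblast and vessel markers was called higher with and without the block. With the block 4.28 to 10.8% of all tested genes were called at these times.

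Nr1h3 RNA was several times higher in every group of cells given aSyn than in every group that was not, and no change with co-culture was detected in either. Its level spanned 16.6 to 39.2 CPM (median 29.8) in the 26 units given aSyn and 2.87 to 12.9 CPM (median 6.64) in the 26 others, with no overlap. Both sets hold the units at 300 min, where Nr1h3 was chosen, so this separation is a description. The lowest unit with aSyn was a donor unit at 15 min and the highest without it an untreated one, so neither came from 300 min. The share of all genes that separate the sets in this way is not given. The counts behind these levels ran from 27 to 525 per unit. In bulk RNA, a smaller share of expressing cells and less RNA per cell cannot be told apart.

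Untreated units had 4.24, 9.77, 12.9 and 4.11 CPM of Nr1h3 in numbers 1 to 4. The aSyn-treated units had 27.4, 30.5, 17.7 and 34.6 CPM in the same order. All 4 treated units thus lay above all 4 untreated ones, and number 3 had both the highest untreated and the lowest treated level. The mean was 7.74 ± 4.31 CPM untreated and 27.6 ± 7.20 CPM treated (SD, n = 4 each). On the log2 scale the difference was 1.83 ± 0.37 (SE), a 3.56-fold rise with an adjusted p of 0.00303 in edgeR's quasi-likelihood test. Nr1h3 was 1 of 9 members called there, where 2.5% of all tested genes were called. Without number 1 the difference was 1.66 and the adjusted p 0.0539. A fit of only these 2 groups gave 1.85 and 0.0908. With the block it was 1.88 ± 0.35 (adjusted p = 0.000211). By p without the block, Nr1h3 was number 63 of 13169 genes.

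**Figure D1:**
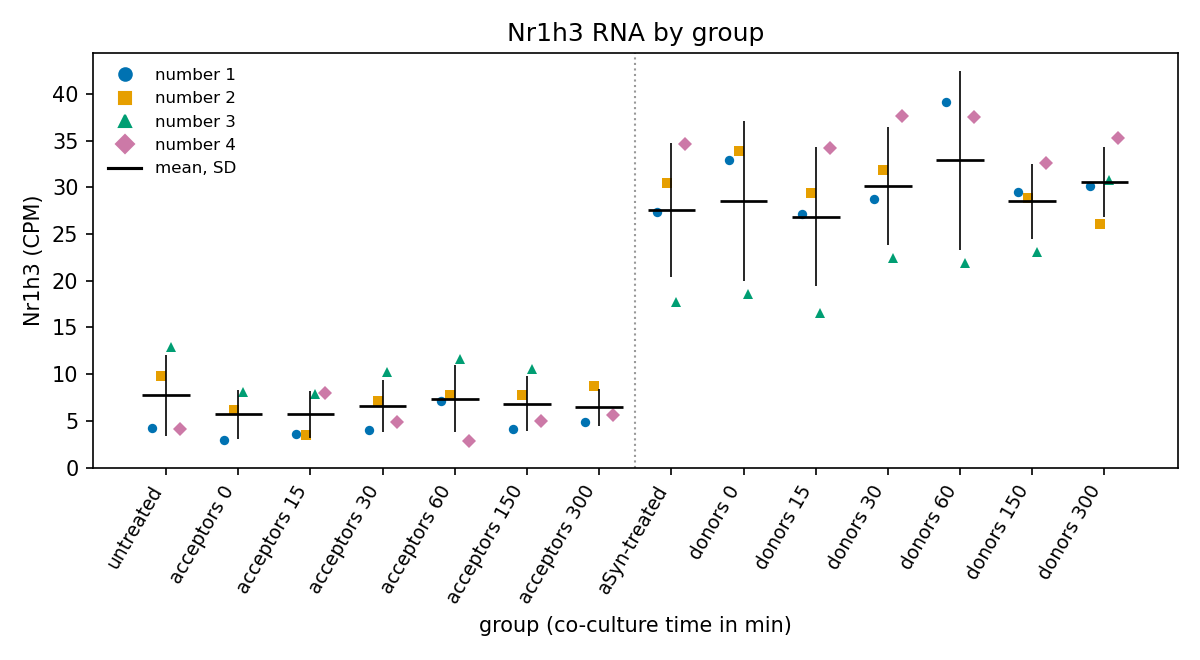
Nr1h3 level in CPM (linear axis from 0) for each of the 52 units in the 14 groups, with the co-culture time in min on the group axis; symbols are replicate numbers, the horizontal line is the group mean and the vertical line 1 SD. The 26 units right of the dotted line were given aSyn and lie between 16.6 and 39.2 CPM, above all 26 on the left, which lie between 2.87 and 12.9 CPM. Both sides hold the units at 300 min, where Nr1h3 was chosen, so the separation is a description.

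Donors stayed in the range of the aSyn-treated cells or above it, apart from 1 unit at 15 min. At 0 min numbers 1 to 3 had 32.9, 33.9 and 18.6 CPM, and at 15 min numbers 1 to 4 had 27.2, 29.4, 16.6 and 34.2 CPM. At 30 min they had 28.7, 31.9, 22.4 and 37.6 CPM. Number 3 was the lowest donor unit at each of these times. At 60 min numbers 1, 3 and 4 had 39.2, 21.9 and 37.5 CPM. At 150 min numbers 1 to 4 had 29.4, 28.8, 23.1 and 32.6 CPM, and at 300 min 30.2, 26.1, 30.8 and 35.3 CPM. At 300 min number 3 was no longer the lowest. Donor group means ran from 26.9 CPM at 15 min to 32.9 CPM at 60 min. Against aSyn-treated cells the log2 differences were -0.04 to 0.25 from 0 to 150 min, each with a 95% interval that included 0 and none past -0.76 or 1.03, and each with an adjusted p of 1.

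Acceptors had lower means than untreated cells at every time, by less than the spread. At 0 min numbers 1 to 3 had 2.91, 6.12 and 8.12 CPM. At 15 min numbers 1 to 4 had 3.57, 3.48, 7.86 and 7.93 CPM, and at 30 min 4.05, 7.16, 10.2 and 4.86 CPM. Number 3 was here the highest or close to it. At 60 min numbers 1 to 4 had 7.15, 7.79, 11.6 and 2.87 CPM, at 150 min 4.11, 7.75, 10.6 and 4.98 CPM, and at 300 min numbers 1, 2 and 4 had 4.92, 8.72 and 5.67 CPM. Acceptor means of 5.71 to 7.35 CPM lay within 1 SD of the untreated mean. The log2 differences from untreated cells were -0.42 to -0.07 from 0 to 150 min, with adjusted p-values of 0.959 or more. These comparisons share the untreated units with the comparison of aSyn-treated cells.

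At every matched time the donors stood above the acceptors in each pair with the same number. The log2 difference was 2.30 ± 0.44 at 0 min (adjusted p = 0.0102), 2.22 ± 0.38 at 15 min (0.000815) and 2.20 ± 0.38 at 30 min (0.00132). It was 2.15 ± 0.40 at 60 min (0.00401) and 2.05 ± 0.38 at 150 min (0.00501), so the folds ran from 4.14 to 4.93. By p, Nr1h3 took ranks 7, 13, 8, 8 and 7 among 13169 genes in the order of the times. It was 1 of 9 members called at each time, where 0.251%, 0.888%, 0.805%, 0.418% and 0.167% of all tested genes were called. At 300 min, where Nr1h3 was chosen, the difference was 2.24 ± 0.42 and is not tested. Without number 1 the call was lost at 0, 30, 60 and 150 min (adjusted p = 0.442, 0.0546, 0.143 and 0.133), and without number 2 at 0, 15, 60 and 150 min (0.287, 0.0746, 0.0575 and 0.117). Fits of only the 2 groups compared lost it at 0, 15, 60 and 150 min (0.0623, 0.0505, 0.235 and 0.155). With the block all 5 adjusted p-values were between 6.46e-05 and 0.000615, and without number 1 the one at 0 min was 0.0811. The difference itself did not shift detectably between 0 and 150 min in an F test of the donor-acceptor gap (adjusted p = 1). The part that the astrocyte and oligodendrocyte-lineage markers have in these differences was not tested.

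Ordered by mean, the 7 groups without aSyn came first, from acceptors at 15 min (5.71 CPM) to untreated cells, and the 7 groups with aSyn followed, from donors at 15 min to donors at 60 min (32.9 CPM). Only the step between untreated cells and donors at 15 min, 19.1 CPM, exceeded the larger SD of the 2 neighbouring groups. All 12 other steps, of at most 2.30 CPM, lay within it. The order includes donors and acceptors at 300 min, where Nr1h3 was chosen, so it is a description.

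The size of the Nr1h3 gap differed by replicate number. Over the 6 comparisons of aSyn-treated with untreated cells and of donors with acceptors up to 150 min, the same-numbered log2 difference of number 3 was 0.46 to 1.18. It was 2.43 to 3.43 for number 1, which was present in all 6, and in 5 comparisons each it was 1.63 to 3.02 for number 2 and 2.09 to 3.64 for number 4. The gap of number 3 was the smallest of all in each of the 6. Both sides contributed: number 3 had a median of 10.4 CPM without and 21.9 CPM with aSyn, and number 4, whose cells had the same passage number 2 in the labels, had 4.92 and 34.9 CPM. Leaving number 3 out of the fit with the block gave a log2 difference of 2.92 at 0 min and 2.78 at 60 min.

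Nr1h2, the more widely expressed receptor, was nearly level. Its group means ran only from 53.2 CPM in untreated cells to 68.4 CPM in acceptors at 0 min, a 1.28-fold span against 5.76-fold for Nr1h3. Untreated units had 53.1, 62.2, 54.1 and 43.6 CPM, and aSyn-treated units 60.6, 66.7, 68.8 and 61.0 CPM. Number 2 of the untreated units overlapped with the treated ones. The log2 difference was 0.27 ± 0.13, not called without the block (edgeR adjusted p = 0.271) and called with it (0.0353), where 19.2% of all tested genes and 3 of 9 members were called. Leaving out number 1, 3 or 4 ended the blocked call of Nr1h2 (adjusted p = 0.0569, 0.120 and 0.170). Acceptors differed from untreated cells by 0.18 to 0.36 from 0 to 150 min, which was not called with or without the block. Donors and acceptors differed in Nr1h2 by -0.04 to 0.06 at these times. At 300 min the description is 0.06 ± 0.14.

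Within a library, the ratio of both receptors does not depend on its depth, and since 3′ tags are not scaled to transcript length it is used only to compare groups. Cells given aSyn had 24.2 to 73.7 Nr1h3 counts per 100 Nr1h2 counts (median 45.5), and the other cells 4.58 to 23.8 (median 10.2). The sets did not overlap, though the highest unit without aSyn, at 23.8, nearly reached the lowest with it. Both sets include the units at 300 min, where Nr1h3 was chosen.

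None of the 7 targets was called in any tested contrast without the block, by edgeR or DESeq2. Beside Nr1h3, 0 of the 8 other members passed in aSyn-treated against untreated cells and in donors against acceptors. At an unadjusted edgeR p under 0.05 with the block, Nr1h2, Abcg1 and Pltp joined Nr1h3 in the first, as did 4274 of 13169 genes. In the second, Abca1 joined it at 0, 15 and 30 min, and Abcg1 at 15 and 30 min. Scd2 did at 15, 30 and 150 min, Srebf1 at 15 min and Mylip at 150 min. Over all genes these were 2423, 3370, 3378, 3014 and 2688 from 0 to 150 min. Pltp and Mylip were lower, the others higher. Against aSyn-treated cells, 0 of 9 members were called in donors from 0 to 150 min with or without the block, where 0% of all tested genes were called, and DESeq2 called 0 as well. At an unadjusted p under 0.05 there were 0 without the block and 1 with it, Srebf1 at 15 min. In acceptors against untreated cells 0 of 9 were called at each time with edgeR or DESeq2. The share of all tested genes called at 0, 15, 30, 60 and 150 min was 0%, 0%, 0.114%, 0.0683% and 0.137% without the block and 0.995%, 2.25%, 3.6%, 4% and 4.78% with it. At an unadjusted p under 0.05 the members were Nr1h2 at 0 and 30 min without the block, and with it Nr1h2 at 0, 15, 30 and 60 min and Abca1 and Srebf1 at 150 min.

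**Figure D2:**
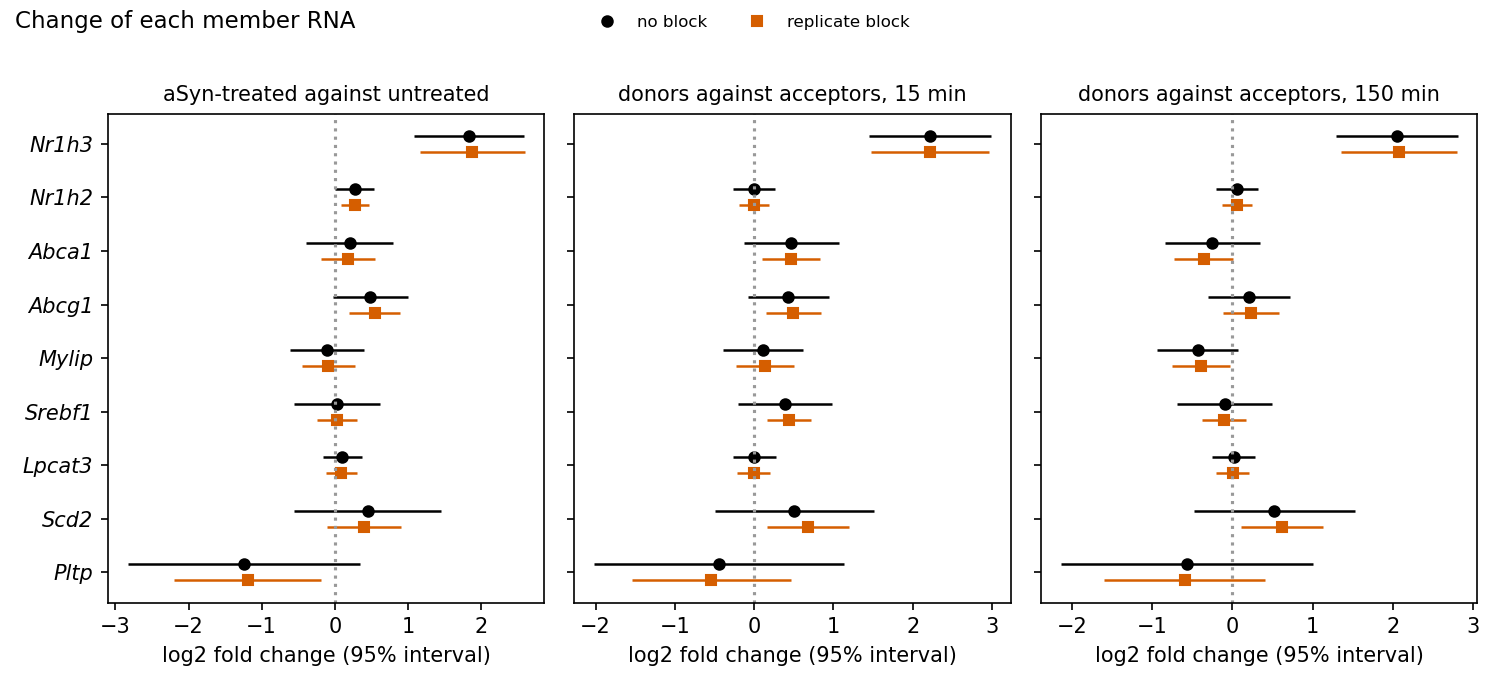
Log2 fold change with its 95% interval for the 9 members in aSyn-treated against untreated cells and in donors against acceptors at 15 and 150 min, from the fit without the replicate block (black) and with it (orange); the dotted line marks no difference. Nr1h3 stands at 1.83 to 2.22 without the block, while the black intervals of the 7 targets include 0.

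The efflux transporters come first. Abca1 moves cholesterol and phospholipid onto lipid-poor apolipoproteins, and its promoter carries the core printed above. Untreated units had 463, 385, 478 and 284 CPM of Abca1, and aSyn-treated units 606, 472, 526 and 253.2 CPM. Numbers 1 to 3 were higher with aSyn and number 4 lower. This is a log2 difference of 0.21 ± 0.30 (adjusted p = 0.775). Donors at 0 min had 614, 496 and 577 CPM in numbers 1 to 3 and acceptors 347, 381 and 416 CPM. These groups did not overlap, yet the difference of 0.56 ± 0.34 was not called (adjusted p = 0.771, and 0.129 with the block). Donors were above acceptors in 4 of 4 pairs at 15 min (0.47 ± 0.30) and at 30 min (0.53 ± 0.30) and in 3 of 3 at 60 min (0.27 ± 0.32). Number 4 ran low in most groups, with 206 to 302 CPM in all its donor and aSyn-treated units. With the block and without number 4, the Abca1 differences at 0, 15 and 30 min were 0.56, 0.48 and 0.60 and were called (adjusted p = 0.00199, 0.0105 and 0.0014). Number 4 has no unit at 0 min, where the blocked difference was also 0.56 with number 4 in the fit. The fit without number 4 was added after the data were seen. It called 1450, 871 and 1122 of 13079 genes at these times.

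At 150 min the order of Abca1 turned in numbers 3 and 4. Acceptors had 400, 404, 600 and 589 CPM and donors 513, 420, 499 and 246.1 CPM. Number 4 acceptors had been at 220, 214 and 261.2 CPM at 15, 30 and 60 min, and were at 427 CPM at 300 min. The difference at 150 min was -0.25 ± 0.30 (adjusted p = 0.906), and at 300 min it is 0.04 ± 0.32 as a description. An F test of change over 0 to 150 min in acceptors gave Abca1 an unadjusted p of 0.325 without the block and 0.00318 with it, where the adjusted p was 0.392. For the change in the donor-acceptor difference the blocked p was 0.00704 and the adjusted p 1.

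Abcg1, which passes cholesterol to mature lipoprotein particles, had 347, 652, 427 and 208 CPM in untreated units and 501, 693, 579 and 517 CPM in aSyn-treated ones. All 4 numbers were higher with aSyn, by 0.09 to 1.32 on the log2 scale, with number 2 the smallest and number 4 the largest. The log2 difference was 0.49 ± 0.25 (adjusted p = 0.316). With the block it was 0.55 ± 0.17 and called (0.0217), but not without number 1, 3 or 4 (0.105, 0.0517 and 0.0674). Donors exceeded acceptors by 0.31, 0.43, 0.39, 0.17 and 0.21 from 0 to 150 min, with standard errors of 0.25 to 0.29 and no call. In number 3 the donors at 15, 30 and 60 min had 576, 576 and 530 CPM and the acceptors 598, 626 and 604 CPM. In number 4 the donors had 654, 482 and 628 CPM and the acceptors 251.3, 306 and 319 CPM. With the block and without number 3, the difference at 15 min was 0.70 and called (adjusted p = 0.0324). Number 3 was the only pair with lower donors at that time, so this call is a description. The fit was added after the data were seen and called 704 of 13095 genes.

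**Figure D3:**
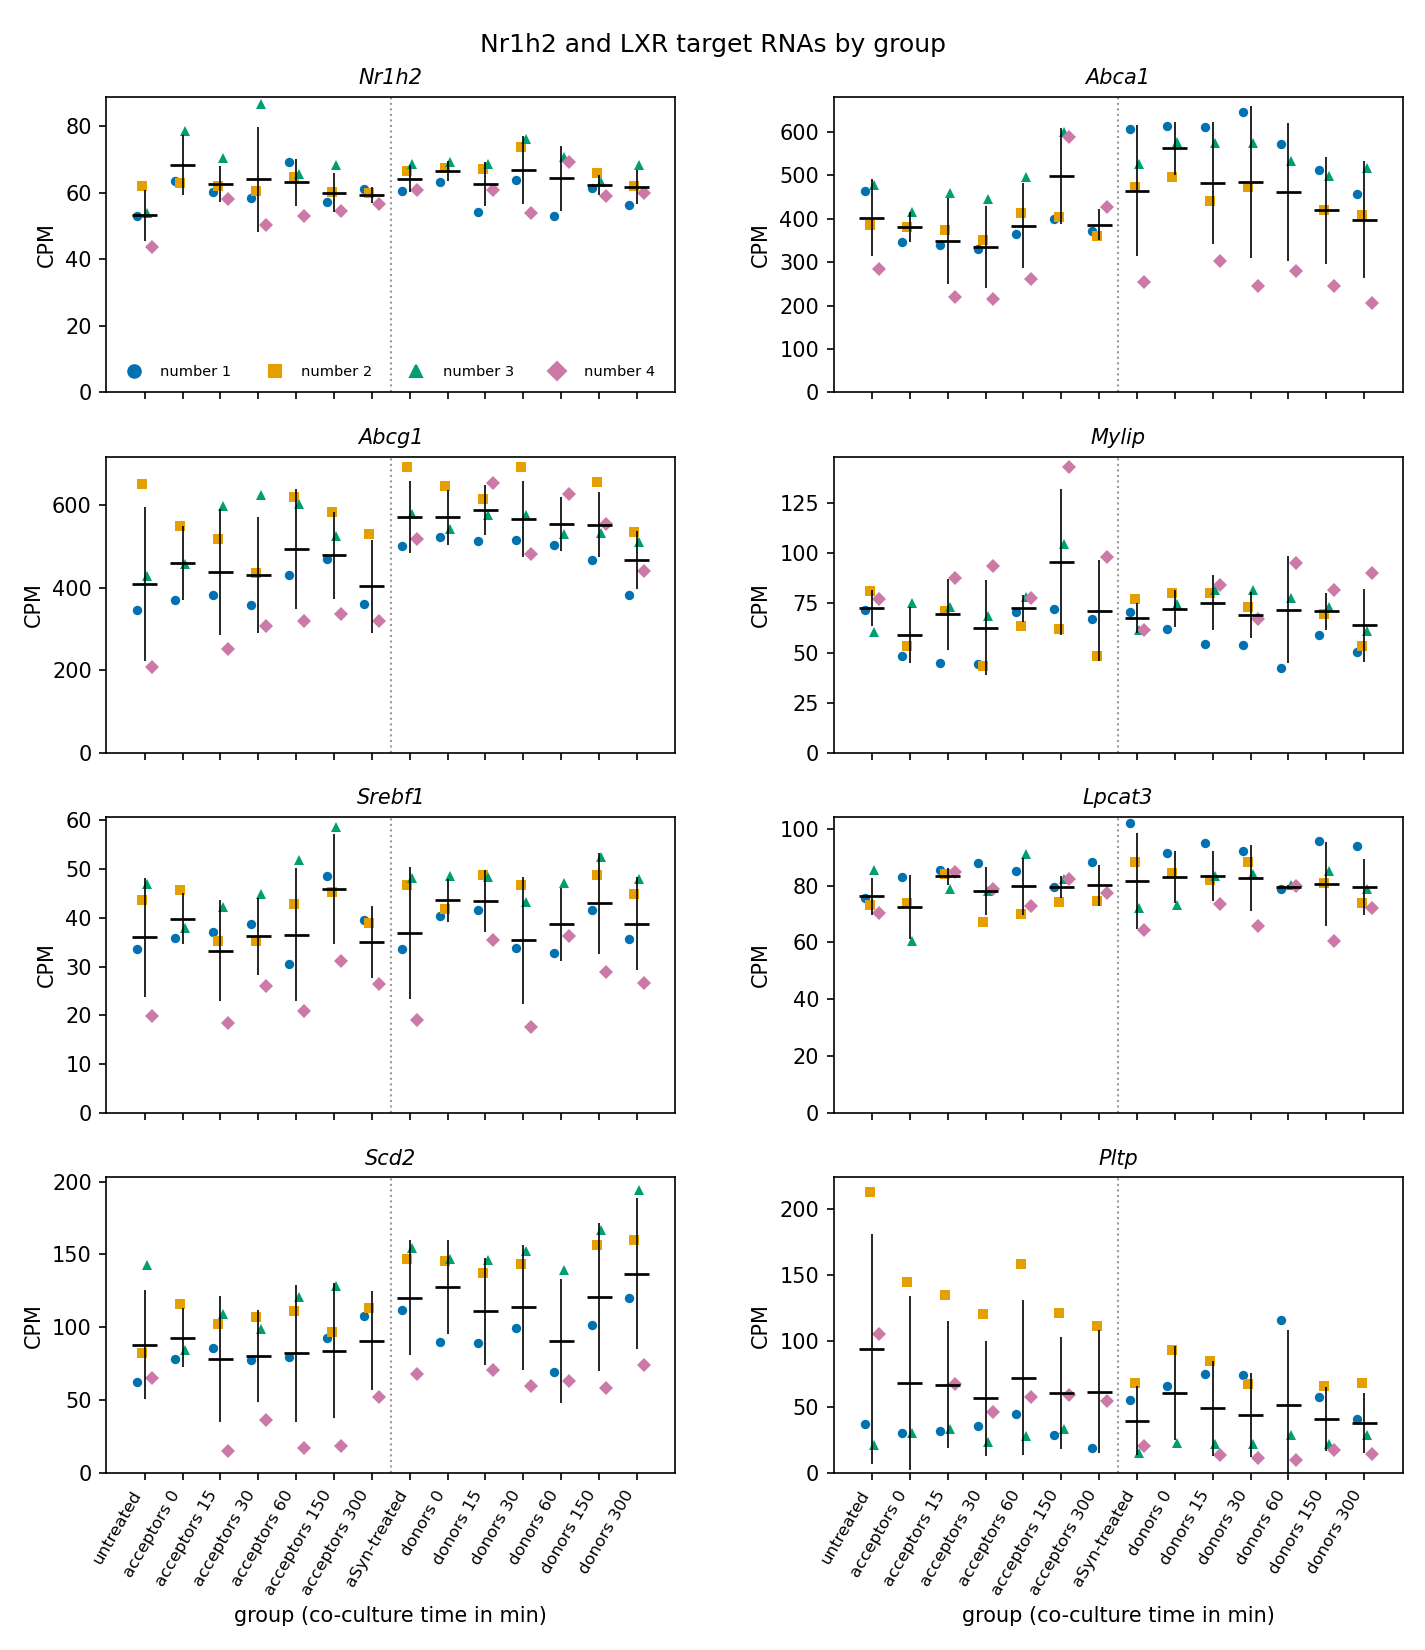
Level in CPM (linear axes from 0) of Nr1h2 and of the 7 LXR targets in each unit of the 14 groups, with the co-culture time in min on the group axis; symbols are replicate numbers, the horizontal line is the group mean, the vertical line 1 SD, and groups right of the dotted line were given aSyn. In all 8 panels the units with and without aSyn overlap, and number 4 (diamonds) is lowest in many groups for Abca1, Srebf1 and Scd2.

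Mylip encodes IDOL, a ubiquitin ligase that lowers the uptake of lipoproteins. Untreated units had 71.5, 80.9, 60.2 and 76.95 CPM and aSyn-treated units 70.2, 76.8, 61.6 and 61.4 CPM, so the ranges overlapped. Their log2 difference was -0.10 ± 0.25 (adjusted p = 0.879). The highest mean of the gene was 95.2 CPM in acceptors at 150 min, where the units had 71.9, 61.7, 104 and 143 CPM. The unit at 143 CPM is the number 4 acceptor library in which Abca1 was at 589 CPM. Donors minus acceptors was -0.43 ± 0.25 at that time (adjusted p = 0.685) and between -0.01 and 0.29 at the earlier ones. An F test over time in acceptors gave Mylip an unadjusted p of 0.0781, and 0.0128 with the block (adjusted p = 0.647).

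Srebf1 encodes SREBP1, the transcription factor of fatty acid synthesis, whose SREBP-1c form is the one known to be raised by LXR. The 3′ tags do not separate its forms. Untreated units had 33.6, 43.7, 47.0 and 19.8 CPM and aSyn-treated units 33.6, 46.8, 48.1 and 19.03 CPM, which is nearly the same value in each number. That is a log2 difference of 0.04 ± 0.29 (adjusted p = 0.970), or 0.03 ± 0.14 with the block. At 15 min donors had 41.6, 48.7, 48.4 and 35.4 CPM and acceptors 37.2, 35.3, 42.2 and 18.4 CPM. The donors were higher in 4 of 4 pairs, by 0.39 ± 0.29 without the block (adjusted p = 0.642) and by 0.44 ± 0.14 with it (0.0358). Leaving out any 1 number ended that call (adjusted p = 0.0542 to 0.171). This was 1 of 2 members called there with the block, where 9.57% of all tested genes were. At 30 min only 1 of 4 pairs went that way, and the difference was -0.03 ± 0.29.

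With the block, the members called in donors against acceptors were Nr1h3 at every time and Srebf1 at 15 min. At 0, 30, 60 and 150 min that is 1 of 9 members, against 4.28%, 10.8%, 6.7% and 5.19% of all tested genes.

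Lpcat3 attaches polyunsaturated fatty acids to membrane phospholipids. It varied least of the 9, with group means from 72.5 to 83.5 CPM, a 1.15-fold span. Untreated units had 75.8, 73.3, 85.5 and 70.4 CPM and aSyn-treated units 102, 88.5, 71.96 and 64.5 CPM. Numbers 1 and 2 were higher with aSyn, and numbers 3 and 4 lower. The log2 difference was 0.10 ± 0.13 with a 95% interval of -0.17 to 0.37. In donors against acceptors it lay between -0.005 and 0.20 from 0 to 150 min.

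Scd2, the brain form of stearoyl-CoA desaturase, makes monounsaturated fatty acids. Untreated units had 62.5, 82.3, 143 and 65.2 CPM and aSyn-treated units 112, 147, 155 and 67.9 CPM. Each number was higher with aSyn, by 0.84 in numbers 1 and 2, 0.11 in number 3 and 0.06 in number 4 on the log2 scale. The difference was 0.45 ± 0.50 (adjusted p = 0.694), and 0.40 ± 0.25 with the block (0.280). Donors exceeded acceptors in 3 of 3 pairs at 0 min, in 4 of 4 at 15, 30 and 150 min, and in 2 of 3 at 60 min, with log2 differences of 0.14 to 0.52 and no call. Acceptors of number 4 were at 15.0, 36.4, 16.9 and 18.7 CPM from 15 to 150 min, while their donors were at 70.98, 59.6, 63.1 and 58.2 CPM. Without number 4 and with the block, aSyn-treated cells exceeded untreated ones by 0.58 (adjusted p = 0.00768) and donors exceeded acceptors at 30 min by 0.47 (0.0406). That fit was added after the data were seen and called 1620 and 1122 of 13079 genes in these comparisons. The highest mean was 137 CPM in donors at 300 min, whose difference from acceptors, 0.59 ± 0.54, is a description.

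Pltp, the phospholipid transfer protein of plasma lipoproteins, differed most between replicate numbers. Untreated units had 36.8, 213, 21.5 and 105 CPM and aSyn-treated units 55.5, 67.9, 15.3 and 20.2 CPM. Numbers 2, 3 and 4 were lower with aSyn, with log2 differences of -1.65, -0.48 and -2.37, and number 1 was higher by 0.59. The difference was -1.25 ± 0.79 (adjusted p = 0.432), and -1.19 ± 0.50 with the block (0.0875). Without number 1, the only number that rose, the blocked difference was -1.70 and called (0.00784). That fit was added after the data were seen and called 2101 of 13334 genes, so its call is a description. In donors against acceptors number 1 was higher at every time, by 0.98 to 1.39, and number 4 lower, with differences of -2.57 to -1.74. The fitted differences of -0.57 to -0.17 from 0 to 150 min average over these opposed values, and none was called. Acceptors at 300 min were below untreated cells in 3 of 3 pairs (-0.95 to -0.92), with a fitted difference of -0.61 ± 0.85, given as a description.

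Change over co-culture time was tested over 0 to 150 min, leaving out 300 min. No member was called in donors, in acceptors or in the donor-acceptor difference, by edgeR with or without the block or by DESeq2. Of all tested genes, 0.00759%, 0% and 0% were called in these 3 tests without the block and 0.0152%, 0% and 0.0152% with it. At an unadjusted p under 0.05 there were 0 members in each without the block. With it there were 0 in donors, 3 in acceptors (Abca1, Mylip and Srebf1) and 2 in the difference (Abca1 and Srebf1).

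The level of each member was set beside that of Nr1h3 over the 52 units as log2 CPM, after the mean of each replicate number had been subtracted. The units fall into the sets with and without aSyn, and they share library, depth and number, so the correlations are descriptions. Abcg1 had r = 0.69 and Scd2 r = 0.59 over all units, Abca1 0.34, Nr1h2 0.28, Srebf1 0.20 and Lpcat3 0.18, while Mylip had -0.05 and Pltp -0.32. Within the sets, Abcg1 had r = 0.48 in the 26 units with aSyn and 0.37 in the 26 without. Scd2 had 0.18 and 0.06, and Abca1 0.01 and 0.05. Among 9126 genes with a mean of at least 5 CPM, Abcg1 stood at the 94.1 and Pltp at the 27.2 percentile.

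The genes whose pattern was most like that of Nr1h3 by this measure were Itgal (r = 0.96), Acp2 (0.95), H2-M2 (0.94), Mmp14 (0.94) and Herpud1 (0.93). Itgal is the alpha chain of the integrin LFA-1, Mmp14 a membrane-bound matrix metalloproteinase, and Herpud1 a protein of degradation at the endoplasmic reticulum. Within the sets Itgal had r = 0.78 with aSyn and 0.69 without. Its median was 94.2 CPM with aSyn and 12.9 CPM without. The most opposed were Zfp618 (-0.90) and Cep170b (-0.90).

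Acp2, lysosomal acid phosphatase, is also the neighbour of Nr1h3 in the genome. Nr1h3 lies on the minus strand at chr2:91184061-91202834 in GENCODE's annotation of GRCm38, and Acp2 on the plus strand at chr2:91202885-91214098, so the genes point away from each other with 50 bases between their annotated 5′ boundaries. Their 3′ ends, where these reads fall, are 30.0 kb apart. The RefSeq promoter table places the Nr1h3 starts inside that GENCODE gene, in windows between 91194986 and 91195366, so the sources disagree on where its transcripts begin and the distance between start sites is larger by RefSeq. The stretch between both GENCODE boundaries, chr2:91202835-91202884 on the plus strand, is shown because it separates the 2 annotated genes.
Nr1h3-Acp2 gap: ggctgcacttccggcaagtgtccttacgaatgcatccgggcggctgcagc
Acp2 had 279 to 436 CPM (median 358) in the units with aSyn and 126 to 265.7 CPM (median 179) in those without, again with no overlap. It rose by 0.86 ± 0.23 on the log2 scale in aSyn-treated cells (edgeR adjusted p = 0.0301, and 0.000179 with the block). In donors against acceptors it was higher by 0.83 to 0.99 from 0 to 150 min, called at 15 and 30 min without the block (0.0297 and 0.0225) and at all 5 times with it.

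**Figure D4:**
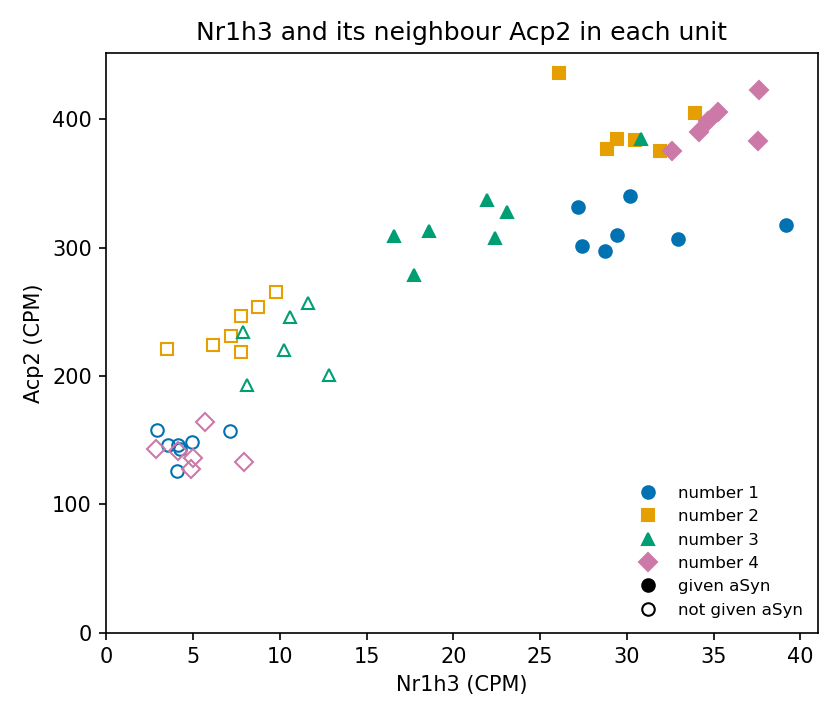
Acp2 level against Nr1h3 level, both in CPM on linear axes from 0, for the 52 units; colours and shapes are replicate numbers, filled symbols units given aSyn and open symbols units not given it. Filled symbols start at 279 CPM of Acp2 and 16.6 CPM of Nr1h3, and open symbols end at 265.7 and 12.9 CPM. Number 3 (triangles) has the narrowest gap between its open and filled symbols in Nr1h3.

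The other neighbours were looked up after these values had been seen. Madd, a regulator of Rab GTPases on the same strand as Nr1h3, lies 224 bases beyond its 3′ end and took rank 10 in likeness of pattern (r = 0.92). Its difference in aSyn-treated cells was 0.49 ± 0.24 (adjusted p = 0.299), called only with the block at 0.51 ± 0.11 (0.0011). Spi1, which encodes the myeloid factor PU.1 68.3 kb away from Nr1h3 on that side, had 0.19 ± 0.18 (0.632) and took rank 3514. Pacsin3 on the other side had -0.40 ± 0.46 (0.711) and took rank 7970. Mybpc3, between Spi1 and Madd, rose by 2.27 ± 0.47 in aSyn-treated cells (0.00327) and was also 2.76 ± 0.47 higher in acceptors at 30 min than in untreated cells (0.00809), unlike Nr1h3, which was at -0.23 ± 0.37 there. Ddb2 did not pass the filter.

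Several members overlap other genes in the annotation. Pltp shares 495 exonic bases with Ctsa, Lpcat3 334 with Emg1 and Srebf1 109 with Rai1, each on the opposite strand, and whether the counting used strand is not given in the sources used here. Nr1h3 shares 34 exonic bases with Gm13783 on its own strand. The levels of these members are uncertain to that extent.

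Other genes of the pathway came from 4 lists. None of their members was called without the block in any tested contrast, as with the 7 targets above. Of the partners and cofactors, 9 of 10 were tested, and their median in aSyn-treated cells was -0.06 beside -0.04 for all tested genes. The share of all tested genes called with the block in that comparison was 19.2%, and the counts of the 4 lists are to be read against it. With the block 0 rose and 1 fell, the coactivator Ncoa1 (-0.36 ± 0.12, edgeR adjusted p = 0.0258).

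Of 19 other LXR targets 16 were tested, with a median of -0.02 in aSyn-treated cells. With the block 2 rose and 1 fell, or 3 of 16, which is close to the 19.2% of all tested genes. Mertk, a receptor for the uptake of dying cells, rose by 0.47 ± 0.15 (0.0212), from 122 ± 28.6 to 168 ± 24.97 CPM. Npc2, which carries cholesterol in the lysosome, rose by 0.40 ± 0.13 (0.0328). Lpl, lipoprotein lipase, fell by 1.14 ± 0.33 (0.0123), from 8542 ± 1753 to 4491 ± 2168 CPM. In donors against acceptors Mertk was 0.68 ± 0.15 higher at 15 min and Lpl differed by -1.04 ± 0.33, and both were again called with the block at 30 min.

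Among 9 genes of oxysterol and sterol ligand handling, 6 were tested, with a median of -0.62 in aSyn-treated cells (-0.79 with the block) beside -0.04 (-0.05) for all tested genes. With the block, where 19.2% of all tested genes were called, 0 of the 6 rose and 2 fell: Ch25h, which makes 25-hydroxycholesterol, by 1.24 ± 0.33 (0.00614), and Cyp27a1, which makes 27-hydroxycholesterol, by 1.36 ± 0.49 (0.0443). Ch25h had 35.4 ± 28.8 CPM in untreated and 15.5 ± 9.10 CPM in aSyn-treated cells. Donors were also below acceptors in Ch25h with the block at 30 min (-1.32 ± 0.33, 0.00821) and at 150 min (-1.06 ± 0.32, 0.0454), where 10.8% and 5.19% of all tested genes were called.

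In the SREBP2 arm of cholesterol synthesis and uptake 13 of 14 genes were tested, with a median of -0.18 in aSyn-treated cells. With the block 1 rose, Insig2 (0.43 ± 0.14, 0.0291), and 1 fell, Dhcr7 (-0.56 ± 0.17, 0.0215), so 2 of 13 were called beside 19.2% of all tested genes. Insig2 was also called higher with the block in acceptors, which were not given aSyn, than in untreated cells. The differences were 0.69 ± 0.15 at 0 min (0.0214), 0.62 ± 0.14 at 30 min (0.0119) and 0.55 ± 0.14 at 150 min (0.0193). There 0.995%, 3.6% and 4.78% of all tested genes were called. In donors against acceptors at 150 min Insig1, which holds back SREBP processing, was higher with the block by 0.68 ± 0.18 (0.0170). The part that the untreated cells' higher astrocyte and oligodendrocyte-lineage markers have in the list values against untreated cells was not tested.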

How the data were processed

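Per the file headers, the deposited table holds the raw count of reads for each gene symbol in 54 libraries. The submitters' processing notes name STAR, Partek, DESeq2 and the build mm10, with no role or version, and the use of strand is not given in the sources used here. Samples were grouped by their labels. The members and gene lists were chosen with earlier results of these data known. Counts were compared in R (version 4.3.3) with edgeR (version 4.0.16): TMM normalization, genes kept by filterByExpr (groups as factor, minimum count 10), a group-means design over all 14 groups (52 units), quasi-likelihood F tests and Benjamini-Hochberg adjustment over 13169 genes, called under 0.05. Standard errors follow from the fold change and its F statistic. Levels are CPM on TMM-scaled library sizes. The 16 tested contrasts and 3 F tests left out the 3 contrasts at 300 min.

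The pairing rests on the replicate numbers, which recur in the labels of all groups. Deviations from group means correlated at 0.199 or more for every same-numbered pair, so the fit with the replicate number as a block is printed where it changes a call. Its biological coefficient of variation was 21.0%, and 38.1% without it. Number 4 carries facility numbers of its own. Values without number 4 rest on the other 3 numbers, which themselves differ in passage (3, 1 and 2 for numbers 1, 2 and 3).

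Named were all 9 members, list genes called with or without the block (at most 4 per list and comparison), and the 5 genes most and 2 least like Nr1h3 by Pearson's r of log2 CPM (prior count 2). The 10 alternatives planned were the block, other size factors, no filter, DESeq2 (version 1.42.0), a fit of only the groups compared, the 6 untreated libraries kept apart, and leaving out each number. Leaving out each number with the block was added after seeing the data. The scripts were tested on simulated data. Promoters are RefSeq's (GRCm38.p6) and positions GENCODE's for GRCm38, the assembly of mm10. The result of 1 gene of the SREBP2 list is not reported here.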

Additional observations from a re-analysis of the deposited data

Results flagged for a closer look

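Each member's units were checked for one that stood far from the rest of its group, in 90 combinations of member and group with 4 units. Only 1 was found: in donors at 15 min, Mylip was at 54.6 CPM in number 1 and between 80.01 and 84.1 CPM in the other 3 units. Chance alone flags about 1 in 20 such groups.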

How the results depend on the processing

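With the replicate number as a block (pairing), 3 members instead of 1 were called in aSyn-treated against untreated cells, and the count in donors against acceptors was 6 instead of 5. Fitting the 2 groups of each comparison alone called 0 and 1. Leaving out 1 number gave 0 to 1 in the first comparison and 1 to 5 in the second, and with the block as well 1 to 3 (2 without number 1 or number 4) and 4 to 9 (9 without number 4). Over all genes, those blocked fits called 1380 to 2101 in the first comparison, of 13079 to 13334 tested. In the second they called 155 to 1450, 584 to 871, 721 to 1122, 332 to 588 and 250 to 426 from 0 to 150 min. The most were without number 4 at each time. Over these 14 alternatives Nr1h3 was called in 12 for aSyn-treated against untreated cells, with log2 differences of 1.501 to 2.38 and adjusted p-values of 1.65e-05 to 0.0908. For donors against acceptors at 0, 15, 30, 60 and 150 min it was called in 10, 12, 13, 11 and 11 of 14. No member's call changed direction, and the counts of 0 in the 5 other comparisons stayed at 0. Other size factors, no filter, DESeq2 and the 6 untreated libraries kept apart changed no count of called members. Over all genes, aSyn-treated against untreated cells had 329 calls, 2524 with the block (1178 higher and 1346 lower, against 211 and 118), 616 with DESeq2, 618 with the untreated libraries apart, 37 with only the groups compared, and 73 to 301 without 1 number. Donors against acceptors at 0, 15, 30, 60 and 150 min had 33, 117, 106, 55 and 22 calls over all genes, 564, 1260, 1416, 882 and 684 with the block, 81, 214, 122 and 91 with DESeq2 at 0, 15, 60 and 150 min (155 higher and 74 lower at 30 min), 42, 18, 13, 2 and 1 with only the groups compared, and 36 to 152, 19 to 179, 10 to 80 and 8 to 29 from 15 min on without 1 number, the fewest without number 1 (number 3 at 60 min) and the most without number 4. At 0 min they were 2 without number 1 and 180 higher and 61 lower without number 4. Depth limits Nr1h3 most in units without aSyn, the lowest of which held 27 counts.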
